A study of Mus musculus with 16 samples.

Results

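The genes described here encode the chaperones and protein quality control factors of 3 compartments of mouse C17.2α neural cells: the endoplasmic reticulum (ER), the cytosol and the mitochondria. They were taken by gene symbol from a list of 38 genes. All 38 were found among the 54658 symbols of the count tables, and 36 had a mean of 1 CPM (read counts scaled to library size) or more over the 15 distinct libraries, a minimum passed by 14004 genes in all. The 36 are 19 of 19 ER genes, 9 of 11 cytosolic genes and 8 of 8 mitochondrial genes. Hspa1a and Hspb1, which encode an inducible cytosolic HSP70 and a small heat shock protein, did not pass, with means of 0.0977 and 0.00851 CPM, and were not tested.

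C17.2α is a line of mouse neural stem cells that stably overexpresses the thyroid hormone receptor TRα1, so the control cells carry this transgene too. All cells were kept without T3 in medium with charcoal-stripped serum and were lysed 24 h after addition of the solvent DMSO (2 libraries) or of a strobilurin dissolved in it. Strobilurins are fungicides that block complex III of the mitochondrial respiratory chain. Cells received 30, 100, 300 or 1000 nM of pyraclostrobin, picoxystrobin or trifloxystrobin, or 100 or 1000 nM of azoxystrobin, with 1 library per concentration. The labels do not say whether the libraries came from separate cultures, so p-values measure only the spread between these libraries. That spread may in part be technical. In comparisons with DMSO it also holds differences between the concentrations of a compound, and in slopes over concentration the departures from a line.

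Each compartment has its own folding machinery and its own alarm. Unfolded proteins in the ER activate sensors of the unfolded protein response, which raise ER chaperones in part through the transcription factor XBP1, whereas unfolded proteins in the cytosol release the factor HSF1, which activates the heat shock genes. Mitochondria rely on imported HSP60, HSP70 and HSP90 family chaperones and on the proteases LON and CLP, all of them products of nuclear genes.

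Azoxystrobin at 100 nM and DMSO replicate 2 held the same count in each of the 54658 genes, and their data were used once, as DMSO. Which of the labels is right is unknown. The other pairs of libraries differed in at least 22355 genes. Total counts ranged from 12292390 to 18188099, with a median of 16180381. Across genes, the log2 ratio to DMSO was lower for genes of higher GC content, taken from their longest transcript, in picoxystrobin at 30, 100 and 300 nM (Pearson's r = -0.529, -0.603 and -0.668 over 13929 genes), and picoxystrobin at 1000 nM stood apart from them with r = 0.165, against -0.306 to -0.0382 in the other libraries. Of the markers of neural progenitors, Vim, Nes, Cdh2 and Sox2 were present in every library (at least 33.6 CPM), Msi1 reached 7.13 CPM, and Pax6 and Fabp7 were at most at 0.126 and 1.92 CPM. The glial lineage gene Sox10 (at least 152 CPM) and the collagen genes Col1a1 and Col1a2 (at least 1721 and 535 CPM) were also abundant, and the neuronal markers Map2 (107 to 159 CPM) and Tubb3 (11.7 to 30.2 CPM) and the astrocytic marker S100b (11.2 to 20.6 CPM) were present in every library. Rbfox3, Aqp4 and Ptprc, of neurons, astrocytes and immune cells, had 0 counts.

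The promoters of the ER genes carried a shared motif more often than other promoters. RefSeq promoter sequences (GRCm38.p6, 250 bases before to 50 bases after the start) matched 31 of the 38 genes. Hsf1, Hsp90aa1, Hsp90ab1, Hspa8, Hspa9, Hyou1 and Manf had no entry. The ER stress element, through which the unfolded protein response activates its targets, was searched on both strands as CCAAT, 9 bases and CCACG. It was found in the promoters of 7 of the 31 genes (22.6%), all of them ER genes, against 37 of 27025 genes with an entry (0.137%), or 0.119% of all 32851 promoters. These 7 genes encode the ER HSP70 (Hspa5) and HSP90 (Hsp90b1), the lectin chaperones calreticulin (Calr) and calnexin (Canx), a disulfide isomerase (Pdia6), an HSP70 co-chaperone (Dnajc3) and Creld2. These elements carry the shared letters of the ER genes and are printed with 10 bases on either side, 5′ to 3′ on the strand of the gene, with the letters of the motif or of its reverse complement in capitals.
Calr (promoter chr8:84846882-84847181, minus strand): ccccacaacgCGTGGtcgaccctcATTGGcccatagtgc
Canx (promoter chr11:50325624-50325923, minus strand): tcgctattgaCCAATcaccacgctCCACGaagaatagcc
Creld2 (promoter chr15:88819396-88819695, plus strand): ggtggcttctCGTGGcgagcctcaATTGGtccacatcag
Dnajc3 (promoter chr14:118937682-118937981, plus strand): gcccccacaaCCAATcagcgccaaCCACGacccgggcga
Hsp90b1 (promoter chr10:86705395-86705694, minus strand): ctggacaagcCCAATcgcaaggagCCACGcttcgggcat
Hsp90b1 (promoter chr10:86705395-86705694, minus strand): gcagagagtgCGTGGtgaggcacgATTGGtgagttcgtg
Hspa5 (promoter chr2:34771840-34772139, plus strand): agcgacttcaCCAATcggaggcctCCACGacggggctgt
Pdia6 (promoter chr12:17266339-17266638, plus strand): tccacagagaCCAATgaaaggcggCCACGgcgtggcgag

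The element of Hspa5 lay between positions -65 and -47 from the start, and those of the other genes between -212 and -80. The heat shock element, the site bound by HSF1, was searched on both strands as GAA, 2 bases, TTC, 2 bases and GAA. It was found in 3 of the 31 genes (9.68%), against 0.662% of all genes with an entry. Hspd1 and Hspe1, which encode mitochondrial HSP60 and its partner HSP10, lie head to head and share the same pair of overlapping elements, and Hsph1, a cytosolic HSP110, has 1 element downstream of its start.
Hspd1 (promoter chr1:55087883-55088182, minus strand): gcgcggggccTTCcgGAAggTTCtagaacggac
Hspd1 (promoter chr1:55087883-55088182, minus strand): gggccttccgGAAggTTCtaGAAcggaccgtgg
Hspe1 (promoter chr1:55087898-55088197, plus strand): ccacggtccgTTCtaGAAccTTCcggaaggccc
Hspe1 (promoter chr1:55087898-55088197, plus strand): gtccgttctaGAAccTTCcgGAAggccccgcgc
Hsph1 (promoter chr5:149636266-149636565, minus strand): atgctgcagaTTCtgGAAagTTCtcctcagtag

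These matches describe the letters of the windows only, and imperfect copies of either spelling were not searched for. Neither spelling was found in the windows of Hspa1b and Edem1, 2 of the 3 genes whose pyraclostrobin trend passed the test. Their promoters are given in full for this reason, with CCAAT or its reverse complement, found in 37.4% of all promoters, in capitals.
Edem1 (chr6:108828391-108828690, plus strand): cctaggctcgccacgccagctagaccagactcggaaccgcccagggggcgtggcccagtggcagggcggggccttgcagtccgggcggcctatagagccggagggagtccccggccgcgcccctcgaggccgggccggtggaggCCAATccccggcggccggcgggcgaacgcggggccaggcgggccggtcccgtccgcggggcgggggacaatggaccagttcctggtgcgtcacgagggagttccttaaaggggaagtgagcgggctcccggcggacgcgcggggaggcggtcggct
Hspa1b (chr17:34959189-34959488, minus strand): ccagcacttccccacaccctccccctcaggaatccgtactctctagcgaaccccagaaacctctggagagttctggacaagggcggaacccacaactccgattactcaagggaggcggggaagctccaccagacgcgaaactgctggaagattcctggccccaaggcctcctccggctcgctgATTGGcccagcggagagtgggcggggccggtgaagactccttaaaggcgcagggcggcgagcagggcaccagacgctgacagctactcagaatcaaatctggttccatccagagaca

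Per kb of transcript, the highest mean level over the 15 libraries was that of Hsp90ab1, the constitutive cytosolic HSP90, at 971 CPM per kb. It was followed by the ER genes P4hb (a disulfide isomerase, 283), Calr (264), Canx (200), Hsp90b1 (183), Hspa5 (170) and Pdia3 (a disulfide isomerase, 150 CPM per kb). Mitochondrial genes ranged from 7.76 CPM per kb for Lonp1, the LON protease, to 120 CPM per kb for Hspe1. The lowest of the 36 was Hspa1b, the inducible HSP70, at 1.64 CPM per kb, or 29 to 173 reads per library. It is the only gene of the 36 with a mean under 10 CPM. Its values are uncertain because Hspa1a, at 0 to 4 reads per library, is a near-identical copy. Reads that match both Hspa1a and Hspa1b may not have been counted. Hsp90b1, Pdia4, Manf, Hspa8, Dnaja1, Bag3, Hspa9, Trap1 and Dnaja3 share bases with other annotated genes on their own strand. Pdia3, Pdia6, Dnajb9, Dnajb11, Herpud1, Hspd1, Hspe1 and Clpx do so on the other strand only. Whether the counting used strand was not given in the sources used here.

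The first question was which of these genes followed the concentration of a compound. In cells exposed to pyraclostrobin, 3 of the 36 genes did: Hspa1b and Edem1 rose and Hsp90ab1 fell. Edem1 encodes a lectin-like factor that sends misfolded glycoproteins from the ER to degradation. The trend is the slope of log2 expression per 10-fold concentration, tested with edgeR over all 14004 genes with an adjusted p-value under 0.05 as threshold. The 3 calls are 8.33% of the 36 genes, beside 3.16% of all genes tested. In the upward direction it was 2 genes, beside 1.66% of all genes, and in the downward direction 1 gene, beside 1.51%. These genes are 1 of 19 in the ER, 2 of 9 in the cytosol and 0 of 8 in the mitochondria. With DESeq2 the same 3 genes and Clpp were called, beside 5.48% of all genes. No library of pyraclostrobin could be spared: without that at 30, 100, 300 or 1000 nM, 0 of the 36 genes were called in each case. Of all 14004 genes, 9, 142 and 46 were called without 30, 100 and 300 nM, and none without 1000 nM. In bulk RNA, fewer cells of a type and less RNA per cell cannot be told apart. The 4 fibroblast markers (Col1a1, Col1a2, Pdgfra and Dcn, none of them at 0) all had negative slopes in pyraclostrobin, with a median of -0.40. The fall was called for 1 of them, beside 1.51% of all genes. Their summed level was 5210 and 5894 CPM in DMSO, 2297 to 4068 CPM in pyraclostrobin with the lowest values at 300 and 1000 nM, 3434 to 4492 CPM in picoxystrobin and 4089 to 5167 CPM in trifloxystrobin. Their part in the result was not tested.

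Hspa1b, on chromosome 17 (chr17:34956436-34959238, GRCm38, a gene with no overlapping gene in the annotation), was at 3.82 and 3.87 CPM in DMSO. In pyraclostrobin it was at 4.35 CPM at 30 nM, 3.92 at 100 nM, 9.02 at 300 nM and 9.85 CPM at 1000 nM. Both high concentrations lay above every other library of the study, and 1000 nM was 2.56-fold the DMSO mean. The slope was 0.91 (SE 0.21, adjusted p = 0.0404), and with 1 pyraclostrobin library left out it stayed between 0.80 and 1.21 with an adjusted p of 0.0724 to 0.495. In picoxystrobin from 30 to 1000 nM the gene was at 4.27, 4.11, 4.67 and 5.13 CPM, in trifloxystrobin at 3.05, 4.47, 3.07 and 3.12 CPM, and in azoxystrobin at 1000 nM at 2.14 CPM. Only the picoxystrobin libraries were all above both DMSO libraries besides those of pyraclostrobin.

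Hsp90ab1 (chr17:45567775-45573271, also without an overlapping gene) was at 2703 and 2540 CPM in DMSO. It was at 2618, 2742, 1865 and 1684 CPM in pyraclostrobin from 30 to 1000 nM, so that both high concentrations were below both DMSO libraries and the low ones were not. The slope was -0.49 (SE 0.12, adjusted p = 0.0447), with an adjusted p of 0.0685 to 0.56 when 1 pyraclostrobin library was left out, and 0.0519 when genes of 10 CPM or less were not tested. Picoxystrobin gave 2536, 2512, 2389 and 1945 CPM, trifloxystrobin 2568, 2912, 2548 and 2583 CPM, and azoxystrobin at 1000 nM 2586 CPM. The lowest of these, picoxystrobin at 1000 nM, was above both high concentrations of pyraclostrobin.

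Edem1 (chr6:108828641-108859356, without an overlapping gene) was at 134 CPM in both DMSO libraries. In pyraclostrobin it was at 136, 143, 182 and 191 CPM from 30 to 1000 nM. All 4 lay above DMSO, and the high and low concentrations did not overlap. The slope was 0.36 (SE 0.089, adjusted p = 0.0462), and without 1 pyraclostrobin library it stayed between 0.34 and 0.42 with an adjusted p of 0.0974 to 0.507. The gene was at 135, 131, 143 and 166 CPM in picoxystrobin, at 151, 139, 149 and 149 CPM in trifloxystrobin and at 131 CPM in azoxystrobin at 1000 nM. All 4 trifloxystrobin libraries were thus above both DMSO libraries too, as for 7.55% of all genes.

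**Figure D1:**
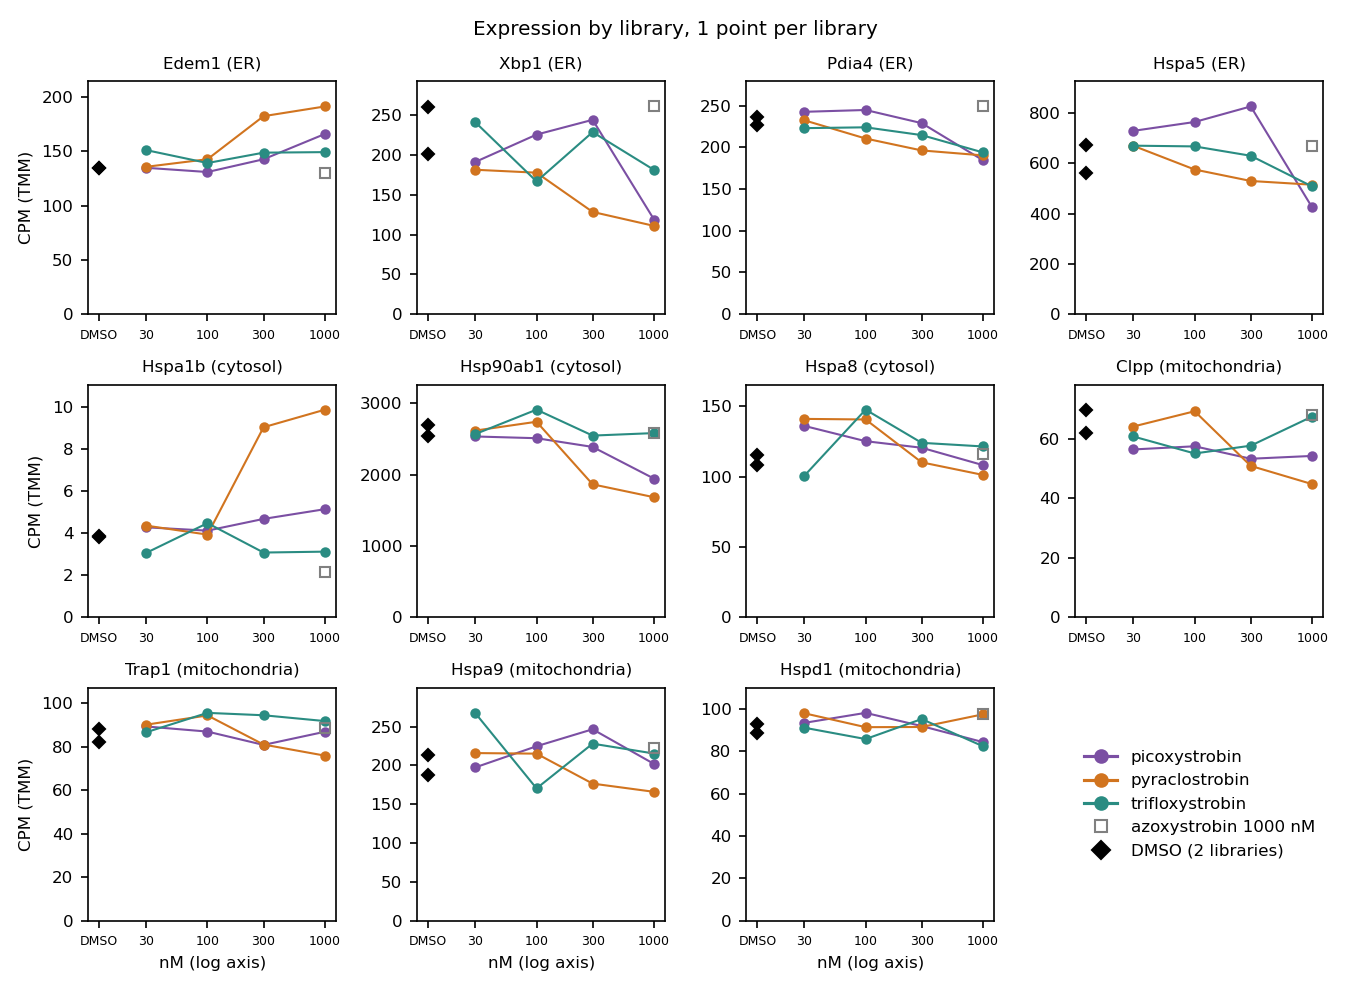
Expression of 11 members in CPM (TMM scaling) against concentration in nM on a log axis, with 1 point per library and the 2 DMSO libraries as diamonds at the left. Hspa1b and Edem1 are highest, and Hsp90ab1 lowest, in pyraclostrobin at 300 and 1000 nM, where Hspa1b reaches 9.02 and 9.85 CPM.

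The other ER genes gave no further call in pyraclostrobin. Xbp1, the transcription factor of the unfolded protein response, was at 201 and 260 CPM in DMSO and at 181, 178, 128 and 111 CPM in pyraclostrobin. All 4 libraries were below both DMSO libraries, as for 18.8% of all genes, with a slope of -0.51 (SE 0.23, adjusted p = 0.214). It was at 191, 226, 244 and 119 CPM in picoxystrobin, at 241, 167, 229 and 181 CPM in trifloxystrobin and at 261 CPM in azoxystrobin at 1000 nM, so that picoxystrobin at 1000 nM lay between the high concentrations of pyraclostrobin. Pdia4, a disulfide isomerase, was at 227 and 236 CPM in DMSO and at 232, 210, 196 and 190 CPM in pyraclostrobin (slope -0.19, SE 0.086, adjusted p = 0.224). In picoxystrobin it was at 242, 245, 229 and 184 CPM, in trifloxystrobin at 223, 224, 215 and 194 CPM, and in azoxystrobin at 249 CPM. The values at 1000 nM of these 3 compounds were close to each other and below both DMSO libraries.

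Hspa5, the HSP70 of the ER (BiP) and a classical readout of the unfolded protein response, was at 563 and 674 CPM in DMSO. It was at 670, 575, 529 and 515 CPM in pyraclostrobin, at 729, 764, 826 and 424 CPM in picoxystrobin, at 670, 667, 630 and 507 CPM in trifloxystrobin and at 667 CPM in azoxystrobin at 1000 nM. The lowest library of each of the 3 compounds was that at 1000 nM, below both DMSO libraries, and the picoxystrobin libraries at lower concentrations were the highest of all. Its slopes were -0.25 (SE 0.17) for pyraclostrobin, -0.42 (SE 0.18) for picoxystrobin and -0.25 (SE 0.17) for trifloxystrobin, with adjusted p-values of 0.434, 0.428 and 1. The remaining 15 ER genes had pyraclostrobin slopes from -0.27 (Herpud1) to 0.21 (Dnajc3), and the median slope of the 19 was -0.12, beside -0.0028 over all genes tested.

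In the cytosol, the slopes of HSP70 and of HSP90 genes differed in sign: that of Hspa1b was positive and that of Hspa8 negative, and that of Hsp90ab1 was negative and that of Hsp90aa1 positive, with the test passed by Hspa1b and Hsp90ab1. Hspa8, the constitutive HSP70, was at 115 and 108 CPM in DMSO and at 141, 141, 110 and 101 CPM in pyraclostrobin (slope -0.35, SE 0.13, adjusted p = 0.133). It was at 136, 125, 120 and 108 CPM in picoxystrobin, at 100, 148, 124 and 121 CPM in trifloxystrobin and at 116 CPM in azoxystrobin at 1000 nM. The low concentrations of pyraclostrobin were above DMSO and the high ones were not. Hsp90aa1, Dnajb1 and Dnaja1, an inducible HSP90 and a pair of HSP40 co-chaperones chosen after their values were seen, had slopes of 0.28, 0.31 and 0.36 (SE 0.13, 0.17 and 0.25, adjusted p = 0.239, 0.341 and 0.443). Hsp90aa1 was at 49.6 and 49 CPM in DMSO, at 62, 48.5, 68.4 and 77.7 CPM in pyraclostrobin and between 47.1 and 61.9 CPM in the other libraries. Dnajb1 was at 57.7 and 52.6 CPM in DMSO and at 58.6, 55.1, 78.5 and 74.9 CPM in pyraclostrobin, and reached 76.1 CPM in picoxystrobin at 1000 nM. Dnaja1 was at 73.9 and 86.4 CPM in DMSO and at 93.7, 73.3, 103 and 130 CPM in pyraclostrobin, and was highest in picoxystrobin at 300 nM, at 156 CPM. For these 3 genes both high concentrations of pyraclostrobin were above DMSO, whereas at 100 nM Hsp90aa1 and Dnaja1 were below both DMSO libraries. The median slope of the 9 cytosolic genes was -0.045, and 4 of them had positive slopes.

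The mitochondrial genes gave no call. Clpp, the proteolytic subunit of the CLP protease, came nearest: it was at 61.8 and 69.8 CPM in DMSO and at 64.1, 69.3, 50.9 and 44.8 CPM in pyraclostrobin (slope -0.40, SE 0.11, adjusted p = 0.0767 with edgeR and 0.0458 with DESeq2). It was at 56.4, 57.5, 53.3 and 54.2 CPM in picoxystrobin, at 60.8, 55.1, 57.7 and 67.5 CPM in trifloxystrobin and at 68.1 CPM in azoxystrobin at 1000 nM. High concentrations of pyraclostrobin were lower than all other libraries. Its partner Clpx, the unfoldase of the same protease, had a slope of 0.12.

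Trap1, the mitochondrial HSP90, was at 88.3 and 82 CPM in DMSO and at 90.2, 94.4, 81.0 and 75.9 CPM in pyraclostrobin (slope -0.19, SE 0.090, adjusted p = 0.248). It ranged from 80.9 to 89.4 CPM in picoxystrobin (89.4, 87.0, 80.9 and 86.9 from 30 to 1000 nM), was at 86.7, 95.6, 94.5 and 91.8 CPM in trifloxystrobin and at 88.7 CPM in azoxystrobin. Pyraclostrobin at 1000 nM was again the lowest library. Hspa9, the mitochondrial HSP70, was at 188 and 214 CPM in DMSO, at 216, 215, 176 and 166 CPM in pyraclostrobin (slope -0.28, SE 0.15, adjusted p = 0.316), at 197, 225, 246 and 202 CPM in picoxystrobin, at 268, 170, 228 and 215 CPM in trifloxystrobin and at 222 CPM in azoxystrobin. Its trifloxystrobin libraries were spread more widely than the pyraclostrobin ones.

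Hspd1, mitochondrial HSP60 and the usual marker of the mitochondrial unfolded protein response, was at 88.5 and 93.0 CPM in DMSO. It was at 98.0, 91.4, 91.5 and 97.5 CPM in pyraclostrobin, at 93.4, 98.2, 91.9 and 84.3 CPM in picoxystrobin, at 91.2, 85.8, 95.3 and 82.4 CPM in trifloxystrobin and at 97.7 CPM in azoxystrobin at 1000 nM. The groups overlapped, and the 95% interval of the pyraclostrobin slope ran from -0.20 to 0.19 (adjusted p = 0.987). The other mitochondrial genes, Hspe1, Lonp1, Clpx and Dnaja3 (an HSP40), had slopes from -0.022 to 0.15. The median over the 8 genes was -0.013.

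**Figure D2:**
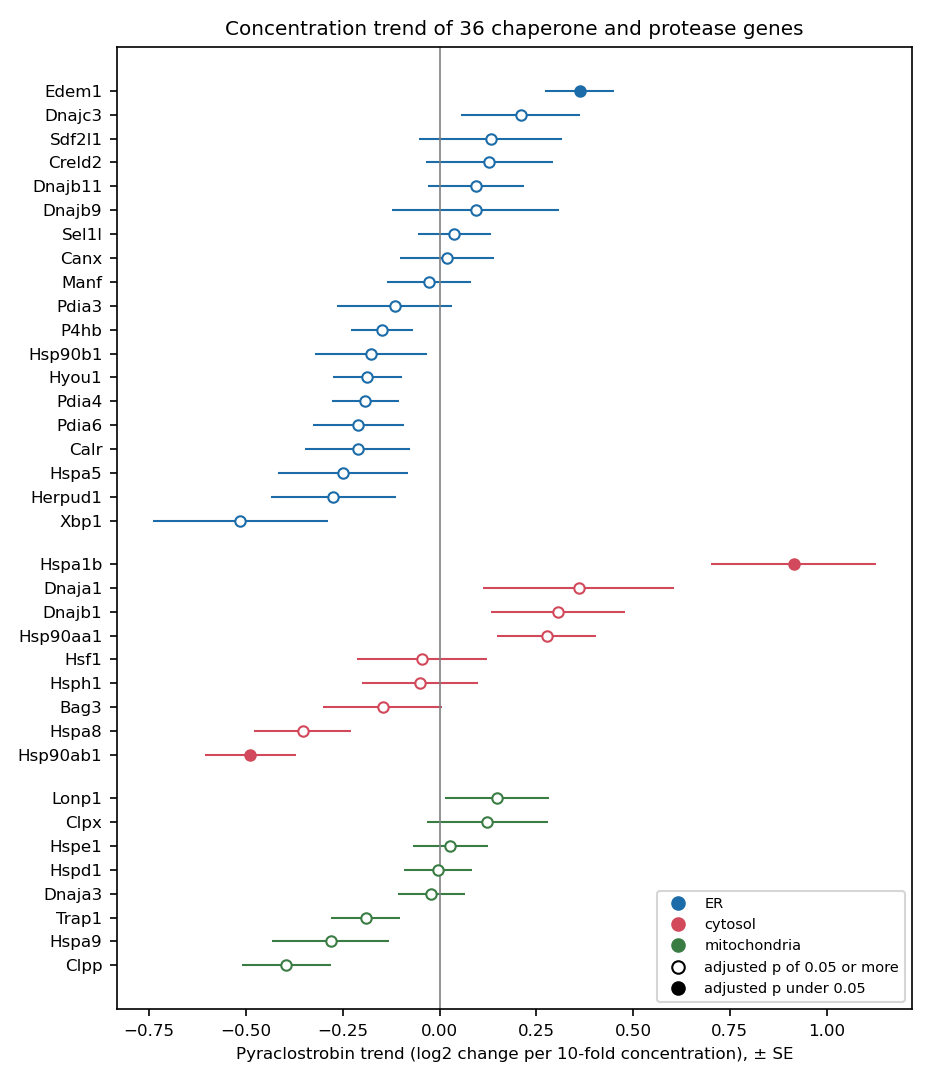
Slope of log2 expression per 10-fold concentration of pyraclostrobin for the 36 genes, by compartment, with bars of 1 standard error and filled points where the adjusted p-value is under 0.05. The filled points are Hspa1b and Edem1 at the right of 0 and Hsp90ab1 at the left.

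Read as ranks, 12 of the 36 genes (33.3%) had both high concentrations of pyraclostrobin (300 and 1000 nM) above both low ones and 15 (41.7%) had them below, beside 31.5% and 32.2% of all genes tested. In trifloxystrobin 0 of the 36 genes had both high concentrations above both low ones and 11 (30.6%) had them below, beside 15.4% and 14.8%. In picoxystrobin these counts were 4 (11.1%) and 13 (36.1%), beside 11.0% and 11.1%.

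For picoxystrobin and trifloxystrobin the trend gave 0 calls among the 36 genes with edgeR, as it did for 0% of all genes tested in each case, and 0 with DESeq2. At an unadjusted p under 0.05 there were 10 of the 36 genes for picoxystrobin and 1 for trifloxystrobin (11 and 0 with DESeq2). Of all genes with edgeR, these were 1586 (11.3%) and 213 (1.52%). For picoxystrobin 7 of the 10 were ER genes, and 17 of the 19 ER slopes were negative, with a median of -0.22. For trifloxystrobin too all but 2 of the 19 ER slopes were negative, with a median of -0.14. The median over all genes with picoxystrobin was 0.0054. The picoxystrobin trend turned on single libraries. Without 1000 nM, 2 of the 36 genes were at an unadjusted p under 0.05, beside 1253 of all 14004 genes. Without 300 nM, 10 of the 36 genes were called, beside 10.7% of all genes. Hspa5, Hsp90b1, Calr, Pdia3, Pdia4 and Dnajc3 in the ER and the cytosolic Dnaja1 had negative slopes, and Bag3, Dnajb1 and the mitochondrial Lonp1 positive ones. The library at 1000 nM, whose relation to GC content had the opposite sign, lies at the end of this slope, and the part of GC content in the calls made without 300 nM was not tested.

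The trends were then compared between compounds. Pyraclostrobin minus picoxystrobin, pyraclostrobin minus trifloxystrobin and picoxystrobin minus trifloxystrobin each gave 0 of 36 calls with edgeR (0% of all genes). DESeq2 also gave 0 of 36, beside 14, 20 and 0 of all 14004 genes. At an unadjusted p under 0.05 there were 4, 5 and 1 of the 36 genes (3, 5 and 1 with DESeq2), beside 12.3%, 10.2% and 2.19% of all genes with edgeR. The slope of Hspa1b was 1.03 higher in pyraclostrobin than in trifloxystrobin (95% interval 0.32 to 1.75, adjusted p = 0.346) and 0.72 higher than in picoxystrobin (0.05 to 1.39, adjusted p = 0.405). That of Edem1 was 0.36 and 0.16 higher (0.09 to 0.63 and -0.11 to 0.43), and that of Hsp90ab1 was -0.46 and -0.25 relative to them (-0.81 to -0.10 and -0.61 to 0.11). None of the 3 trends called in pyraclostrobin is therefore shown to differ from those of the other compounds. Without picoxystrobin at 300 nM, Dnaja1 and Dnajc3 were called between pyraclostrobin and picoxystrobin, beside 3.36% of all genes.

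The second question was whether the compounds, with their concentrations as replicates, moved these genes from their level in DMSO. All these comparisons share the 2 DMSO libraries. With edgeR, 0 of the 36 genes were called for picoxystrobin (beside 0.0286% of all genes), for pyraclostrobin (1.31%), for trifloxystrobin (0%) and for azoxystrobin at 1000 nM (0%), the last with 1 library whose spread was assumed to be that of the other groups. At an unadjusted p under 0.05 there were 4, 7, 0 and 1 genes (4, 8, 0 and 1 with DESeq2), beside 16.8%, 23.3%, 1.71% and 2.09% of all genes with edgeR. DESeq2 called Bag3 and Hyou1 for pyraclostrobin, beside 6.24% of all genes, and 0 of the 36 for the other compounds. Of all 14004 genes it called 176 for picoxystrobin, 0 for trifloxystrobin and 1 for azoxystrobin. When either DMSO library was left out, no member was called for any compound. Of all 14004 genes, 2 were then called for pyraclostrobin without DMSO library 1, and 0 in every other case.

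Bag3, a co-chaperone of HSP70 that links it to autophagy, Hsf1, which encodes the factor of the heat shock response, and Hyou1, a large HSP70 of the ER, are described after their values were seen. All 4 libraries lay below both DMSO libraries for 5 of the 36 genes in pyraclostrobin, 6 in picoxystrobin and 3 in trifloxystrobin. The same held for 18.8%, 13.4% and 7.78% of all genes tested. Bag3 was at 185 and 162 CPM in DMSO. It was at 115, 130, 104 and 105 CPM in pyraclostrobin, at 116, 107, 97.4 and 163 CPM in picoxystrobin, at 155, 149, 135 and 149 CPM in trifloxystrobin and at 161 CPM in azoxystrobin at 1000 nM. All libraries of pyraclostrobin and trifloxystrobin and that of azoxystrobin lay below both DMSO libraries, and those of picoxystrobin did so but for 1000 nM. The log2 change was -0.62 for pyraclostrobin (SE 0.16, adjusted p = 0.0589 with edgeR and 0.0115 with DESeq2), -0.52 for picoxystrobin (SE 0.16, adjusted p = 0.172) and -0.24 for trifloxystrobin. Bag3 overlaps a gene on its own strand, 2610306O10Rik, so that reads of the overlap may not have been counted.

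Hsf1 was at 59.5 and 53.9 CPM in DMSO. It was at 42.1, 48.5, 42.2 and 41.8 CPM in pyraclostrobin, at 39.5, 33.6, 30.8 and 54.4 CPM in picoxystrobin, at 51.9, 54.7, 48 and 50 CPM in trifloxystrobin and at 52.3 CPM in azoxystrobin at 1000 nM. As for Bag3, the libraries of pyraclostrobin, of azoxystrobin and of picoxystrobin at 30 to 300 nM were below both DMSO libraries. Picoxystrobin at 1000 nM was between them. The log2 changes were -0.38 for pyraclostrobin and -0.52 for picoxystrobin (adjusted p = 0.181 and 0.184 with edgeR). Hyou1 was at 49.1 and 52.7 CPM in DMSO and at 45.2 CPM in azoxystrobin at 1000 nM. It was at 43.0, 40.8, 40.4 and 34.7 CPM in pyraclostrobin, at 41.6, 41.0, 39.2 and 37.7 CPM in picoxystrobin, and at 47.6, 46.1, 44.2 and 37.8 CPM in trifloxystrobin, so that all 12 were below DMSO too. Its log2 changes for pyraclostrobin and picoxystrobin were -0.36 and -0.35 (SE 0.11 and 0.11, adjusted p = 0.0903 and 0.178), and DESeq2 gave an adjusted p of 0.0409 for pyraclostrobin.

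Leaving out picoxystrobin at 1000 nM, the library that stood apart, changed the picoxystrobin result. Then 5 of the 36 genes were called, beside 19.2% of all genes: Bag3 (log2 change -0.70, SE 0.11, adjusted p = 0.00237), Hsf1 (-0.71, SE 0.11, adjusted p = 0.00237) and Hyou1 (-0.33, SE 0.11, adjusted p = 0.0451) fell, and Dnaja1 (0.69, SE 0.19, adjusted p = 0.0239) and Clpx (0.48, SE 0.11, adjusted p = 0.0112) rose. The GC content of the longest transcript was 56.1% for Bag3, 53.4% for Hsf1 and 52.3% for Hyou1, against 41.2% for Dnaja1 and 44.6% for Clpx, with a median of 49.3% over the genes tested. With a correction for GC content and length added, a setting chosen after the data were seen, Bag3 and Hsf1 were still called (-0.41 and -0.51, adjusted p = 0.0231 and 0.0216), beside 1.71% of all genes, and Hyou1, Dnaja1 and Clpx were not (-0.14, 0.47 and 0.31, adjusted p = 0.526, 0.126 and 0.0823 with edgeR).

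Compounds were also compared directly at the 4 matched concentrations, for 3 pairs and without the DMSO libraries. With edgeR, 0 of the 36 genes were called for pyraclostrobin against picoxystrobin (0.0143% of all genes), for pyraclostrobin against trifloxystrobin (0.0143%) and for picoxystrobin against trifloxystrobin (0%). DESeq2 also called 0 of the 36, beside 21, 179 and 2 of all 14004 genes. At an unadjusted p under 0.05 there were 4, 6 and 2 genes with each tool, beside 11.6%, 17.1% and 8.33% of all genes with edgeR. Hspa1b was 0.93 higher on the log2 scale in pyraclostrobin than in trifloxystrobin (95% interval 0.36 to 1.5, adjusted p = 0.172), and Xbp1 was -0.47 relative to trifloxystrobin (-0.82 to -0.12, adjusted p = 0.217) and -0.37 relative to picoxystrobin (-0.72 to -0.01, adjusted p = 0.421). The interval of Hspd1 was narrow, from -0.14 to 0.22 against picoxystrobin and from -0.08 to 0.27 against trifloxystrobin.

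Single libraries decided 2 of these pairs. Without trifloxystrobin at 100 nM, where Hspa1b and Hsp90ab1 were highest among the trifloxystrobin libraries, Hspa1b, Xbp1 and Creld2 were called between pyraclostrobin and trifloxystrobin (log2 differences 1.21, -0.64 and 0.48, adjusted p = 0.0392, 0.0494 and 0.0439), beside 2.09% of all genes. Without picoxystrobin at 1000 nM, Bag3, Hsf1, Clpx and Dnaja1 were called between picoxystrobin and trifloxystrobin (-0.48, -0.58, 0.41 and 0.60), beside 7.53% of all genes. With the correction for GC content and length added, 0 of the 36 were called, beside 0 of all 14004 genes tested.

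**Figure D3:**
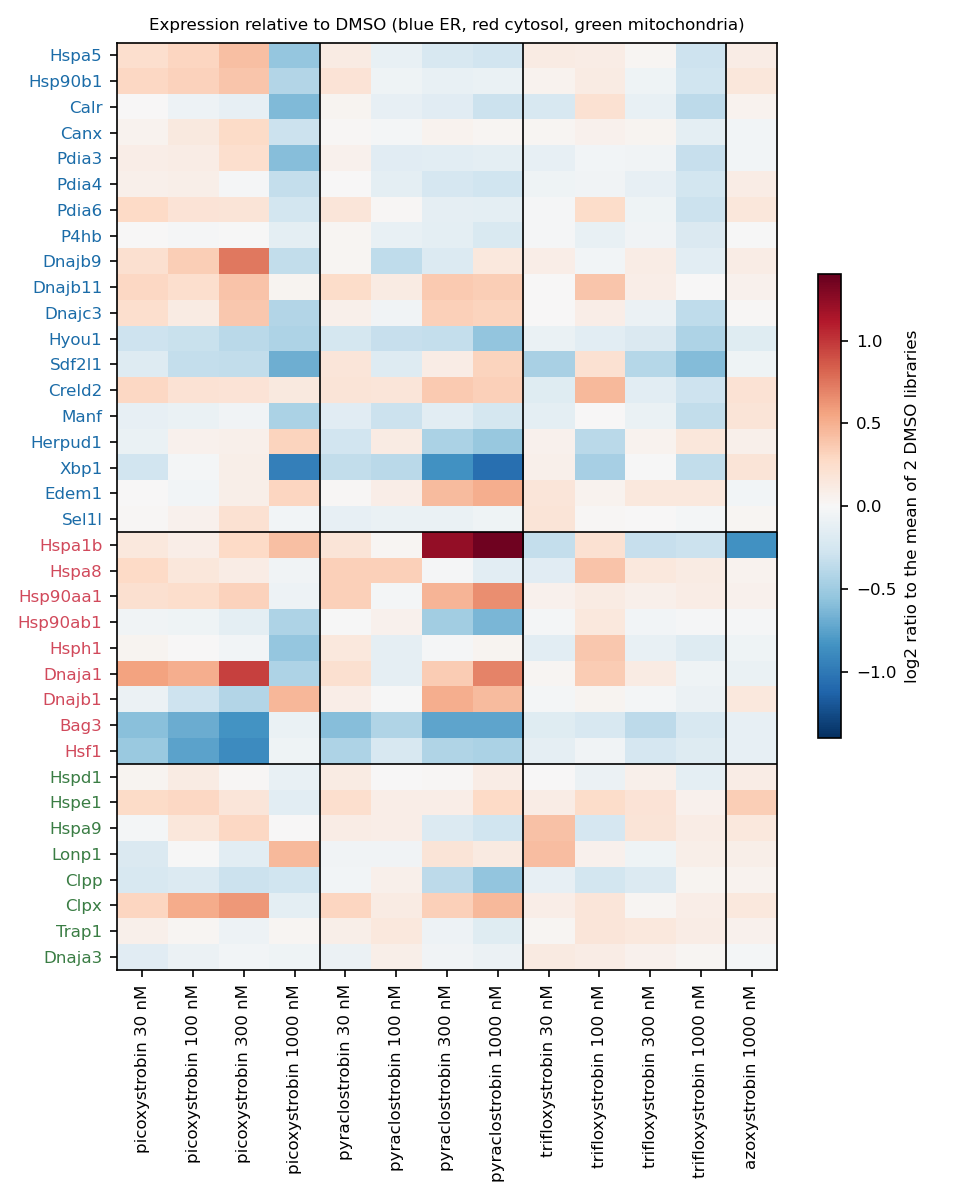
Log2 ratio of each of the 36 genes to the mean of the 2 DMSO libraries in the 13 exposed libraries, with red above and blue below DMSO and gene names coloured by compartment. The strongest colours are those of Hspa1b in pyraclostrobin at 300 and 1000 nM, Xbp1 at 1000 nM of pyraclostrobin and picoxystrobin and Dnaja1 in picoxystrobin at 300 nM, and Bag3 and Hsf1 are below DMSO in picoxystrobin at 30 to 300 nM.

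At 1000 nM the size of the change was also counted, without a test since there is 1 library per compound. In pyraclostrobin, Hspa1b, Hsp90aa1 and Dnaja1 were more than 1.5-fold above the DMSO mean (beside 10.2% of all genes) and Xbp1, Hsp90ab1 and Bag3 more than 1.5-fold below it (11.3%), or 3 of 36 in each direction. In picoxystrobin 0 of 36 were above (5.33%) and 4 below (4.93%), namely Xbp1, Calr, Pdia3 and Sdf2l1, the last a component of an ER chaperone complex. In trifloxystrobin 0 were above (1.76%) and Sdf2l1 was below (2.19%). In azoxystrobin 0 were above (1.56%) and Hspa1b, at 2.14 CPM, was below (1.76%).

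The medians of the compartments are given as descriptions. For the 19 ER genes the median log2 ratio to DMSO was 0.054, 0.080, 0.19 and -0.34 in picoxystrobin from 30 to 1000 nM, 0.035, -0.098, -0.13 and -0.13 in pyraclostrobin, and 0.0038, 0.052, -0.051 and -0.28 in trifloxystrobin. The 2 DMSO libraries had medians of -0.046 and 0.046. The ER median was lowest at 1000 nM in picoxystrobin and trifloxystrobin, whereas in pyraclostrobin those at 300 and 1000 nM were alike. At 1000 nM, 4, 7 and 3 of the 19 genes were above DMSO in picoxystrobin, pyraclostrobin and trifloxystrobin, and the median was 0.058 in azoxystrobin at 1000 nM, with 13 genes above. The medians of the 9 cytosolic genes lay between -0.12 and 0.15 and those of the 8 mitochondrial genes between -0.080 and 0.10 over all exposed libraries, and the median of all genes tested between -0.013 and 0.0089.

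The 7 ER genes whose promoters hold an ER stress element were compared with the 10 other ER genes that have a promoter entry. In picoxystrobin at 1000 nM the ratio to DMSO of the 7 had a median of 0.754, from 0.649 (Calr) to 1.10 (Creld2), and that of the 10 a median of 0.851, from 0.516 (Xbp1) to 1.25 (Herpud1). In trifloxystrobin at 1000 nM the medians were 0.818 and 0.886, and 7 of 7 genes with the element and 7 of 10 without it were below DMSO. In pyraclostrobin at 1000 nM they were 0.939 and 0.936, and in azoxystrobin at 1000 nM 1.08 and 1.03. The ranges of both groups overlapped in each library.

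**Figure D4:**
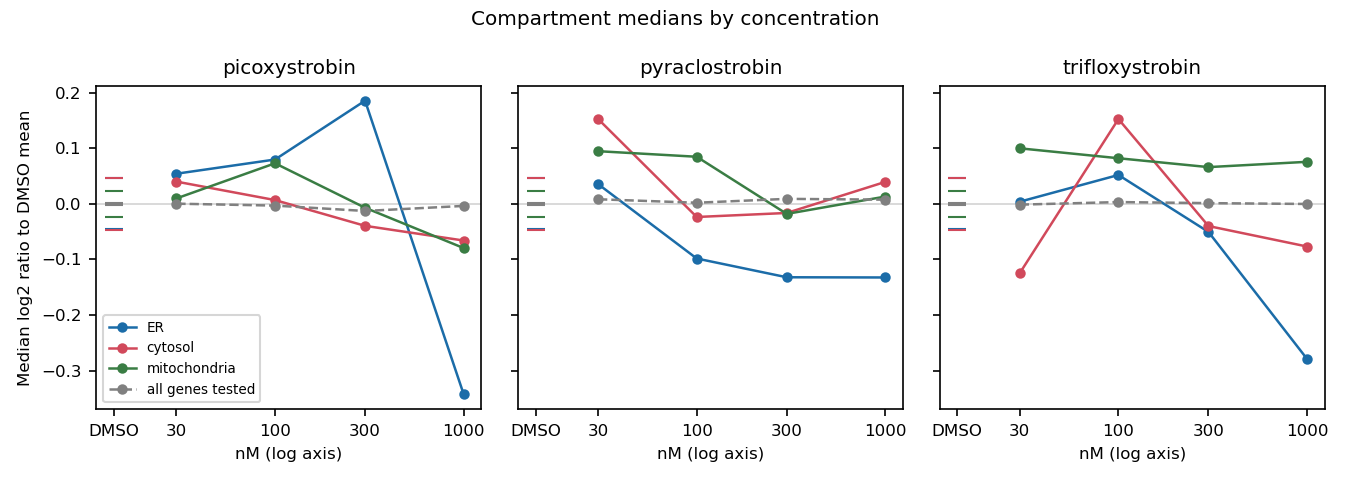
Median log2 ratio to the DMSO mean of the ER, cytosolic and mitochondrial genes and of all genes tested (dashed), against concentration in nM on a log axis, with 1 panel per compound and the 2 DMSO libraries as dashes at the left. At 1000 nM the ER median is -0.34 in picoxystrobin, -0.28 in trifloxystrobin and -0.13 in pyraclostrobin.

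Other genes of the same machineries were listed beside the 36 members. Of 22 tested genes for ER folding and ER-associated degradation, 9 for sensors and regulators of the unfolded protein response, 32 for other cytosolic chaperones and co-chaperones and 18 for other mitochondrial chaperones and proteases, 0 were called by edgeR in any of the 13 comparisons. For the pyraclostrobin trend 9, 4, 8 and 4 of them were at an unadjusted p under 0.05, beside 20.8% of all genes, and DESeq2 called 2, 0, 2 and 0, namely Dnajc10, Ppib, Dnajb4 and Hspa2, beside 5.48% of all genes. For pyraclostrobin against DMSO, 8, 5, 4 and 5 were at an unadjusted p under 0.05, beside 23.3% of all genes. DESeq2 called 4, 3, 0 and 1, beside 6.24%. The 3 sensors and regulators were Creb3l2, Mbtps1 and Ern1, which encodes the ER stress sensor IRE1. Of the 9 sensors and regulators, 2 had a positive log2 change in this comparison with edgeR, and the median was -0.34. The 9 slopes of the sensors and regulators were all negative in pyraclostrobin, with a median of -0.16.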

How the data were processed

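RNA-seq read counts per gene were deposited by the authors, 1 table per library, not normalized. Per the study's methods, strand-keeping total RNA libraries (Lexogen SENSE) were sequenced single-end, aligned with Bowtie2 (2.3.2.2 and mm10 in the submitters' processing notes) and counted with htseq-count. The annotation and the strand setting were not given in the sources used here. Total counts ranged from 12292390 to 18188099. Genes with a mean of 1 CPM over the 15 distinct libraries were kept.

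The quasi-likelihood test of edgeR 4.0.16 (R 4.3.3, TMM factors) was fitted over all 14004 genes, with Benjamini-Hochberg adjustment and a threshold of 0.05. The fits gave each compound against DMSO, the slope per 10-fold concentration of each compound and the differences between slopes, and pairs of compounds at matched concentrations, 13 comparisons in all. Concentrations served as replicates, since each had 1 library. Alternatives were DESeq2 1.42.0, no filter or a minimum of 10 CPM, correction for GC content and length, all 16 libraries, and leaving out each library. The scripts were tested on simulated data.

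Genes named were, per compartment, those called in any comparison, filled up to 3 by the smallest p of the pyraclostrobin trend, with Hspa5, Hspa8 and Hspd1. The members and lists were chosen with earlier results of these data known.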

Additional observations from a re-analysis of the deposited data

Results flagged for a closer look

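In the trifloxystrobin libraries, 2 genes had their highest value at 100 nM, far from the other 3 libraries of the group. Hspa1b was at 4.47 CPM against 3.05 to 3.12 CPM, with a gap that was 0.955 of the whole range of the group, and Hsp90ab1 was at 2912 CPM against 2548 to 2583 CPM, with a gap of 0.904 of the range. Both exceed Dixon's critical value for 4 samples. The comparison was made in 33 groups of 4 libraries (11 genes in 3 compounds), and chance flags about 1 in 20 groups.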

How the results depend on the processing

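Counts of members called are given for the alternatives that moved them. With no filter on low counts, picoxystrobin against DMSO had 2 calls and pyraclostrobin against DMSO 3, with 1 and 5 for their trends, 1 for the difference between these trends, and 3 and 4 for pyraclostrobin against picoxystrobin and trifloxystrobin at matched concentrations. The shares of all genes called in these 7 comparisons were 0.681%, 3.87%, 1.59%, 4.04%, 0.739%, 1.38% and 2.72%. With DESeq2, 2 were called for pyraclostrobin against DMSO, with the correction for GC content and length 1, with all 16 libraries 1 and with the level taken from the fit with slopes 2, beside 6.24%, 1.56%, 2.24% and 7.58% of all genes. For the pyraclostrobin trend the GC and length correction gave 5 and a minimum of 10 CPM gave 1, and 300 and 1000 nM against 30 and 100 nM gave 4, beside 7.57%, 2.96% and 6.82% of all genes. With GC and length correction and without picoxystrobin 1000 nM, a setting chosen after seeing the data, 2 were called for picoxystrobin against DMSO (1.71%).

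Leaving out 1 library at a time gave 0 to 5 calls for picoxystrobin and 0 to 3 for pyraclostrobin against DMSO, 0 to 10 for the picoxystrobin trend, 0 to 0 for the pyraclostrobin trend, 0 to 2 for the difference between these trends, 0 to 3 for pyraclostrobin against trifloxystrobin and 0 to 4 for picoxystrobin against trifloxystrobin. Beside the highest of these counts, in the same order and without the pyraclostrobin trend, 19.2%, 6.81%, 10.7%, 3.36%, 2.09% and 7.53% of all genes were called. The 3 calls of pyraclostrobin against DMSO were Bag3, Hsp90aa1 and Hspa1b, without 100 nM. The causes were not tested.

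The slope of Hspd1 in pyraclostrobin changed sign, to 0.0053 with a minimum of 10 CPM, 0.0057 with no filter, and from -0.10 to 0.095 with 1 library left out. At 1000 nM, the ER median was -0.45 in picoxystrobin against DMSO library 2 alone, -0.22 in pyraclostrobin with the GC correction and -0.062 against DMSO library 1 alone, and -0.17 in trifloxystrobin against DMSO library 1. The mitochondrial median was 0.14 in azoxystrobin against DMSO library 1, -0.12 in picoxystrobin and -0.064 in pyraclostrobin with the GC correction, and 0.033 in trifloxystrobin against DMSO library 2.

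The fits at matched concentrations have concentration as a factor, and without it 0 members were called in each of the 3 pairs. With 1 library per concentration, no concentration has an error of its own.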
